A study of Homo sapiens with 12 samples.

Results

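The comparison described here set ARPE-19 cells transduced with the AAV9-AIPL1wt vector against ARPE-19 cells that received no vector. It rests on 5 of the 12 libraries of the series, which are the 3 libraries of AAV9-AIPL1wt and replicates 2 and 3 of the non-transduced control. Replicate 1 of the control was left out, as the study did after it fell outside the cluster of the other controls, and was used here as a check. All 62757 genes of the count table entered, and 13896 of them had enough counts to be tested.

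ARPE-19 is a human cell line of the retinal pigment epithelium, the cell layer that supports the photoreceptors. Every culture of the study, the controls included, was first kept for 120 h in 3 µM fenretinide, a synthetic retinoid, which is used to turn them toward a neuron-like state. Transduced cultures then received AAV9, an adeno-associated virus capsid, at 100000 vector genomes per cell, with the native human AIPL1 coding sequence (AAV9-AIPL1wt), a codon-optimized one (AAV9-AIPL1co) or GFP (AAV9-GFP). Cells were harvested after 18 h according to the methods of the study and after 24 h according to its results, and the poly(A) RNA of 3 samples per group was sequenced. AIPL1 encodes a co-chaperone that photoreceptors need for folding their phosphodiesterase, and its loss causes Leber congenital amaurosis 4. The control cells received no capsid, so an effect of the capsid, of the vector genome and of its product cannot be told apart in this comparison alone. All cells came from 1 line, and the p-values measure the spread between samples of that line.

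Cells sense foreign nucleic acid through receptors such as RIG-I, MDA5 and the Toll-like receptors, which drive interferon production. Interferon signals through STAT2, IRF9 and their partners, which bind the interferon-stimulated response element (ISRE) in promoters and switch on effectors that block translation, degrade RNA or trap virus particles. The 2-5A synthetases of this set make a messenger that turns on the breakdown of RNA, and IFIT1 binds RNA with a foreign 5′ end. A separate program runs in cells that prepare to divide, in which E2F factors turn on the genes of DNA replication, and AAV genomes depend on host polymerases to become double-stranded.

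The promoters of genes from both programs are shown because many of their members moved in 1 direction, most interferon-stimulated genes up and all listed DNA replication genes down. The sequences are RefSeq promoters (GRCh38.p14, from 250 bases before to 50 after the transcription start), matched by symbol, and the capitals mark the motif. The ISRE was searched as GAAANNGAAA and the E2F site as TTTCCCGC, TTTGGCGC or TTTCGCGC, all on both strands, with overlapping matches merged. The 60-base stretches lie at chr2:6877607-6877666 (RSAD2, plus strand), chr10:89392482-89392541 (IFIT1, plus), chr1:1013359-1013418 (ISG15, plus) and chr1:27672314-27672373 (IFI6, minus).
RSAD2: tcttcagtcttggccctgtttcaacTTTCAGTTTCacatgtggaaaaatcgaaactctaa
IFIT1: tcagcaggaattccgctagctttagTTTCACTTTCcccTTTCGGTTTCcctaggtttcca
ISG15: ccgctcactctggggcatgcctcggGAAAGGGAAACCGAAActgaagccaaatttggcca
IFI6: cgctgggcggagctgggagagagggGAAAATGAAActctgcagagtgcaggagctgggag
Replication genes carried E2F matches at chr2:135876562-135876621 (MCM6, minus strand), chr18:657588-657647 (TYMS, plus) and chr15:48332129-48332188 (DUT, plus).
MCM6: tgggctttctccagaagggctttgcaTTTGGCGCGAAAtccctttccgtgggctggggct
TYMS: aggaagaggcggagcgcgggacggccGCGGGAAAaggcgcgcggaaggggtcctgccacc
DUT: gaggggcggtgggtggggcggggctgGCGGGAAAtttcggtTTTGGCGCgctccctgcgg
Of the interferon-stimulated genes listed here that were higher with AAV9-AIPL1wt, 31 had a promoter in the RefSeq table and 23 of these (74.2%) held an ISRE match. Over all tested members of the list, whatever their change, it was 27 of 38 (71.1%), so the share describes the list and not the change. An ISRE match stood in 9.19% of the promoters of upregulated DEGs (differentially expressed genes, defined below). It stood in 3.90% of the 10488 tested genes with a promoter and 3.57% of all 35116 promoters of that length. An E2F match stood in 17 of 30 promoters of the DNA replication genes (56.7%) and in 8.84% of those of downregulated DEGs. The shares were 5.64% of the promoters of all tested genes and 2.74% of all promoters. A match describes these letters only.

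The libraries held 6322811 to 8845574 gene counts with AAV9-AIPL1wt and 8032078 to 9075660 in control replicates 2 and 3. Levels are given below as normalized counts, that is, counts scaled to a library of average effective size. Fold changes and differences between groups are on the log2 scale throughout, and adjusted p-values are those of the edgeR quasi-likelihood test with Benjamini-Hochberg adjustment over all tested genes. Between libraries, log levels correlated at 0.977 to 0.985 within AAV9-AIPL1wt, at 0.991 between control replicates 2 and 3, and at 0.949 and 0.952 between control replicate 1 and those 2. AAV9-AIPL1wt replicate 1 had 24.3% of its reads mapped to several loci, and the other replicates 15.1% and 13.8%. Per the dates in the run names, AAV9-AIPL1wt replicates 1 and 3 were run with control replicate 1, and AAV9-AIPL1wt replicate 2 with control replicates 2 and 3. A fit within the first date therefore compares with control replicate 1 only. A fit within the second date holds AAV9-AIPL1wt replicate 2 only, set against the same control replicates 2 and 3 as the main fit, so it is no separate check. Each fit within a date had its own set of genes with enough counts (14161 and 14235). The AIPL1wt entry added to the reference counted 0 reads in all 12 libraries, and the AIPL1 gene itself had 1, 0 and 0 reads with AAV9-AIPL1wt and 0 in each control, so the transgene was not detectable in this table. The AIPL1co entry had 11, 13 and 19 reads in the AAV9-AIPL1co libraries. The native coding sequence is also that of the AIPL1 gene and the counts hold uniquely mapped reads only, so reads that match both places would be in neither count, and their number was not tested. A count of 0 allows up to 3 counts per library, for counting error only. PPIA, a housekeeping gene, had 1785, 1391 and 1607 normalized counts with AAV9-AIPL1wt and 1519 and 1696 in the controls (log2 fold change -0.01, adjusted p = 0.923).

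Defining markers were partly absent from these cells. RPE65, the isomerase of the visual cycle, and TYR, the key enzyme of melanin synthesis, had 0 counts in all 6 AAV9-AIPL1wt and control libraries. The photoreceptor genes SAG, GUCY2D and CRX and the neuronal genes NEFL, NEFM and DCX also had 0 counts in each. Other markers were counted in each library. The neuronal genes MAP2 and TUBB3 had 816 and 68 raw reads summed over the 3 AAV9-AIPL1wt libraries. The sums over control replicates 2 and 3 were 1042 and 151. The photoreceptor gene PDE6B had sums of 69 and 76, and the pigment epithelium genes OTX2 and RDH11 had 1498 and 3363 against 1091 and 2892. These sums cover 3 libraries against 2 and give no direction. Per library, RDH11 had 992, 1067 and 1304 raw reads with AAV9-AIPL1wt and 1434 and 1458 in control replicates 2 and 3. OTX2 had 335, 740 and 423 against 504 and 587. Of 24 markers of the pigment epithelium 15 could be tested at an adjusted p under 0.05 (edgeR). Of these 1 (6.67%) was higher with AAV9-AIPL1wt and 3 (20%) were lower, below the 26.4% and 30.0% of all tested genes. Of 21 photoreceptor genes 4 could be tested and 0 passed at that threshold. The last count was also 0 at an unadjusted p under 0.05, with DESeq2 and with limma-voom. The keratins KRT8 and KRT18, abundant in this epithelium, were lower, with fold changes of -0.50 and -0.36 (adjusted p = 0.000369 and 0.00537), but both calls ended with all 12 libraries, and control replicate 1 lay below all AAV9-AIPL1wt libraries for both. MITF, a transcription factor of the pigment epithelium, had 140.4, 224 and 163 normalized counts with AAV9-AIPL1wt and 215 and 243 in the controls, a fold change of -0.37 (adjusted p = 0.109).

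At the thresholds of the study, an adjusted p under 0.005 and an about 3-fold change, 329 genes (2.37%) were upregulated and 681 (4.90%) downregulated differentially expressed genes (DEGs) with AAV9-AIPL1wt. The study, which used DESeq2, reports fewer DEGs in each direction for this comparison, and the reason for the gap was not tested. At an adjusted p under 0.05 with no limit on size, 3664 genes (26.4%) were higher and 4164 (30.0%) lower (edgeR quasi-likelihood test), while the median fold change of all tested genes was -0.04. The shares of 26.4% and 30.0% are the background for all counts of list members below that compare with control replicates 2 and 3. When the tested genes were split into 4 equal bins of control level, 255, 46, 21 and 7 upregulated DEGs fell in the bins from lowest to highest, and 235, 274, 111 and 61 downregulated DEGs. Upregulated DEGs had a median exon GC content of 54.7% and downregulated ones of 44.3%, against 48.6% for all tested genes. Long non-coding RNA genes made up 29.2% of the upregulated and 13.95% of the downregulated DEGs, and 10.7% of the tested genes. The count-weighted GC content was 51.1 to 51.6% in the AAV9-AIPL1wt libraries and 50.3 to 50.4% in control replicates 2 and 3, and its part in these shares was not tested.

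**Figure D1:**
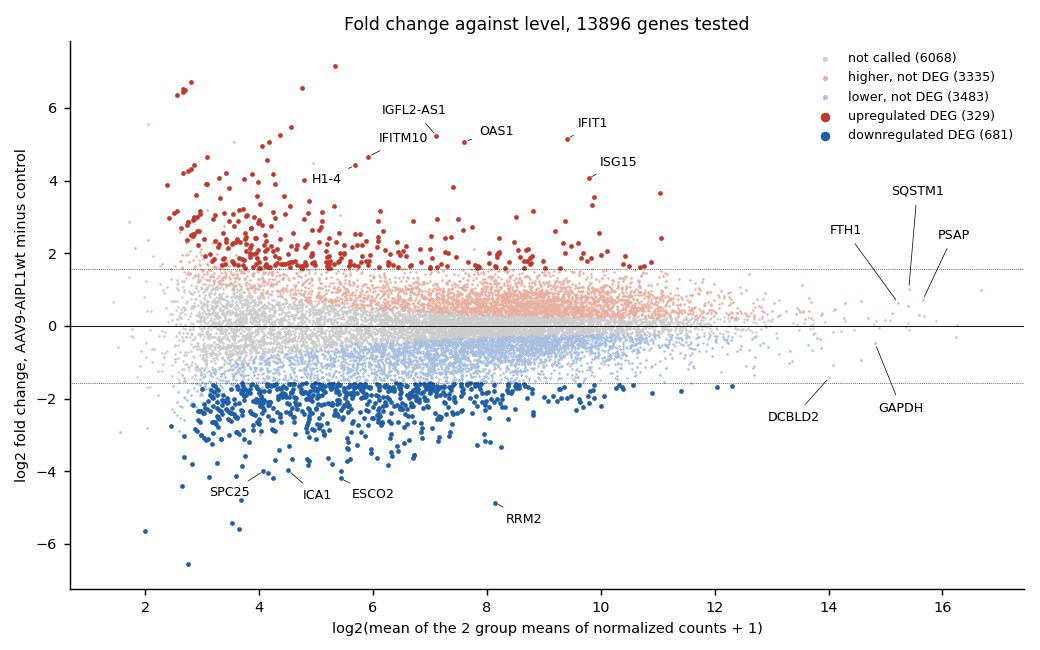
Log2 fold change of AAV9-AIPL1wt over non-transduced control replicates 2 and 3 (vertical axis) against the mean log2 level of the gene (horizontal axis), 1 point per tested gene. Red points are the 329 upregulated and blue points the 681 downregulated DEGs, which lie beyond the dotted lines at a 3-fold change in either direction.

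Control replicate 1 was in no fit above, but it is placed here against the same AAV9-AIPL1wt libraries that selected the DEGs. A high share on the control side is therefore partly built in. It lay below all 3 AAV9-AIPL1wt libraries for 281 of the 329 upregulated DEGs (85.4%), against 38.2% of all tested genes. It lay above them for 590 of the 681 downregulated DEGs (86.6%), against 40.2%. Among all genes called at an adjusted p under 0.05 (edgeR), it lay below for 79.5% of the higher and above for 75.4% of the lower ones. Those shares are the background for the place of this library among called list members below. With all 12 libraries in the fit, 271 of the upregulated and 650 of the downregulated DEGs kept their direction at an adjusted p under 0.05, and 196 and 471 still met the thresholds of a DEG. In that fit 24.3% of genes were higher and 25.4% lower, and within the first date 26.5% and 28.2%. The gene groups below differed in where this library fell.

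Interferon-stimulated genes rose with AAV9-AIPL1wt, and most of them did so against each control. Of 57 listed, 51 were tested, and 36 were higher and 4 lower with AAV9-AIPL1wt, 19 of them upregulated DEGs, with a median log2 fold change of 1.17. Control replicate 1 lay below all AAV9-AIPL1wt libraries for 32 of the 36, and for 79.5% of all genes called higher. The counts were 32 higher and 3 lower with all 12 libraries, 31 and 4 within the first date, and 35 and 3 within the second date, where 30.2% of all genes were higher and 29.7% lower. The summed level of the list was 31417 to 35005 normalized counts with AAV9-AIPL1wt and 16407 to 17264 in the 3 controls.

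IFIT1 (ENSG00000185745.10, chromosome 10, 89392546 to 89406487, plus strand, GRCh38) had 1198, 1506 and 1234 normalized counts in the AAV9-AIPL1wt replicates and 30.1 and 43.7 in control replicates 2 and 3. The groups were far apart, and control replicate 1, at 49.1, stood with the other controls. The fold change was 5.14 (standard error, SE, 0.19, adjusted p = 6.09e-12). The AAV9-GFP and AAV9-AIPL1co groups had means of 33.3 and 52.6. The 4 IFIT genes had fold changes from 0.39 to 5.14 on the log2 scale, and 3 of them passed the test.

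The 4 genes of the 2-5A synthetase family were upregulated DEGs. OAS1 had 454, 317 and 356 normalized counts with AAV9-AIPL1wt and 14.1 and 8.25 in the controls, with 16.4 in control replicate 1, and a fold change of 5.07 (SE 0.37, adjusted p = 9.79e-09). OAS2 had 30 reads in the 3 AAV9-AIPL1wt libraries and 1 in the 2 controls, a ratio of 24.3 (95% exact counting interval 4.04 to 992).

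ISG15, a ubiquitin-like protein that is attached to other proteins, had 2018, 1397 and 1574 normalized counts against 95.1 and 103 in the controls, a fold change of 4.06 (SE 0.20, adjusted p = 2.76e-10). Of the 6 genes of the ISG15 conjugation system 4 were higher, all of them DEGs. RSAD2, which encodes viperin, an enzyme that makes a chain-ending ribonucleotide, had 107 reads with AAV9-AIPL1wt and 2 in the controls, a ratio of 43.4 (95% exact counting interval 11.7 to 363). MX1, a GTPase that blocks viral nucleocapsids, had 163, 93.3 and 117 against 13.2 and 14.03 (log2 fold change 3.16, adjusted p = 1.75e-07). In control replicate 1 ISG15, RSAD2 and MX1 had 77.8, 0 and 30.3 normalized counts, below every AAV9-AIPL1wt library.

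IFI6, a membrane protein induced by interferon, varied between the replicates. Its levels were 2324, 1040.2 and 1831 normalized counts with AAV9-AIPL1wt, with replicate 2 lowest, against 142 and 151 in the controls, and its fold change was 3.56 (SE 0.28, adjusted p = 2.5e-08). SAMHD1, which breaks down deoxynucleotides and restricts viruses, had 621, 589 and 645 against 177 and 181 and a fold change of 1.79 (adjusted p = 6.7e-09). IFI27, another interferon-induced membrane protein, rose by 1.40 (adjusted p = 0.00331), and its call ended with the run date as a term in the fit.

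The signalling members were all higher. IRF7, the factor that amplifies interferon production, had 933, 790.0 and 686 normalized counts with AAV9-AIPL1wt and 93.2 and 86.7 in the controls, and its fold change was 3.16 (adjusted p = 1.63e-09). Lower members of the list included TRIM22 (-0.80, adjusted p = 2.82e-05), ZC3HAV1, a zinc finger protein that binds viral RNA (-0.74, adjusted p = 0.000601), and SAMD9L (-0.54, adjusted p = 0.0212). The call of TRIM22 ended within the first date, and that of SAMD9L ended without AAV9-AIPL1wt replicate 1 or 2, without control replicate 3 and with the GC correction.

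Interferon genes themselves were scarcely counted. IFNB1, IFNL1, IFNL2, IFNL3 and IFNG had 0 counts in every AAV9-AIPL1wt and control library. IFNA1 had 0, 1 and 0 counts with AAV9-AIPL1wt and 3 and 1 in the controls, and IFNE, an epithelial type I interferon, had 8, 10 and 11 against 27 and 38, with 46 in control replicate 1. At this depth no induction of an interferon gene was detectable. Of the 6 receptor genes 1 (16.7%) was higher and 1 (16.7%) lower, below the 26.4% and 30.0% of all tested genes. They were IFNLR1 (0.80, adjusted p = 0.00165) and IFNAR1 (-0.41, adjusted p = 0.00475). IFNLR1 turned to a lower level than in the control within the first date, where control replicate 1 had 119 normalized counts, and the call of IFNAR1 ended with the GC correction or without control replicate 2.

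Of 14 tested sensors and adaptors 6 were higher and 1 lower. IFIH1, which encodes MDA5, a sensor of long double-stranded RNA, had 388, 274 and 373 normalized counts with AAV9-AIPL1wt and 113 and 108 in the controls, a fold change of 1.64 (SE 0.17, adjusted p = 3.02e-07). Control replicate 1 had 223, between the groups. The adaptor MYD88 rose by 1.496 (adjusted p = 4.38e-08), the mitochondrial adaptor MAVS by 0.80 (adjusted p = 4.1e-06) and the DNA sensor IFI16 by 0.76 (adjusted p = 2.23e-05). By contrast TLR3, the endosomal sensor of double-stranded RNA, fell from 26.4 and 20.6 to 3.94, 5.38 and 3.24 normalized counts (-2.42, adjusted p = 0.000264). RIGI, the sensor of RNA with a 5′ triphosphate, had 15.7, 15.2 and 17.3 and 15.1 and 10.7, a fold change of 0.33 that did not pass (adjusted p = 0.460). The calls of TLR3 and IFI16 ended within the first date, where 3 of these genes were higher and 2 lower.

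Antigen presentation moved in both directions. Of 17 genes 9 were higher and 4 lower, and 5 of the 6 MHC class I genes were higher. The peptide transporter TAP1 had 930.3, 664 and 767 normalized counts with AAV9-AIPL1wt and 292 and 272 in the controls (1.48, adjusted p = 1.11e-07), and NLRC5, the transactivator of MHC class I, rose by 1.39 (adjusted p = 5.72e-06). B2M, the light chain of MHC class I, rose by 0.44 (adjusted p = 0.000516), a call that ended within the first date. The peptide-trimming ERAP2 and the immunoproteasome subunit PSMB9 were lower, with fold changes of -1.22 (adjusted p = 1.52e-07) and -1.12 (adjusted p = 0.00161). Of these genes 5 were higher and 4 lower within the first date.

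Replication-dependent histone genes of all 5 classes were higher among those tested. These genes make the histones that package new DNA, and most of their mRNAs end in a stem-loop and carry no poly(A) tail, so poly(A) libraries hold few of them. Of 64 listed genes 19 were tested, 4 of them factors of histone mRNA synthesis and processing. Of the 15 histone genes themselves, 2 H1, 2 H2A, 7 of 8 H2B, 1 H3 and 2 H4 genes were higher, and 10 were upregulated DEGs. The H3 class rests on 1 tested gene of 11 listed, which was not a DEG. A histone gene near 0 in the controls could enter the test only through a group where it was higher. These counts therefore say nothing of the histone genes that were not tested. With 1 processing factor, 15 members of the list were higher and 3 lower, and control replicate 1 lay below all AAV9-AIPL1wt libraries for 13 of the 15. The counts within the first date were 12 higher and 2 lower.

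H1-4 (ENSG00000168298.7, chromosome 6, 26156329 to 26157115, plus strand, GRCh38), a linker histone, had 102, 117 and 69.04 normalized counts with AAV9-AIPL1wt and 2.83 and 5.78 in control replicates 2 and 3, a fold change of 4.42 (SE 0.39, adjusted p = 7.65e-08). Its neighbour H2BC5 (chromosome 6, 26158122 to 26171349, plus strand, GRCh38) had 270.3, 417 and 259 against 20.7 and 23.9 (3.82, SE 0.28, adjusted p = 9.53e-09). Control replicate 1 had 35.2 of H1-4 and 56.5 of H2BC5, above the other controls and below every AAV9-AIPL1wt library. H2BC6 had 10.497, 10.8 and 10.8 normalized counts with AAV9-AIPL1wt and 0 counts in all 3 controls, which makes it at least 8.10-fold higher against a floor of 3 counts over the 2 controls. H4C5 (22.3, 46.6 and 15.1 against 0.942 and 2.48) and H2BC8 (27.6, 102 and 24.8 against 5.65 and 4.13) were highest in AAV9-AIPL1wt replicate 2, and the call of H4C5, at 14.7 in control replicate 1, ended within the first date.

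Of the 4 processing factors 3 were lower and 1, LSM11, was higher. LSM11, a protein of the particle that trims histone mRNAs, was named after its values were seen and had 69.5, 106 and 80.9 normalized counts against 40.5 and 43.7 and 49.9 in control replicate 1 (1.03, adjusted p = 0.000479). NPAT, which activates transcription of histone genes, had 76.1, 100.4 and 101 normalized counts with AAV9-AIPL1wt and 183 and 257 in the controls (-1.24, adjusted p = 2.05e-05). Its partner CASP8AP2 fell by 1.14 (adjusted p = 0.000222). The stem-loop binding protein SLBP had 594, 619.6 and 631 against 745 and 766 and 481 in control replicate 1 (-0.30, adjusted p = 0.0182), a call that ended in 9 of 20 alternatives, and the direction turned within the first date. Most replacement and variant histones are also made outside S phase and have polyadenylated mRNAs, though not every listed member is of that kind. Among 10 of them 4 were higher and 3 lower. H1-10 (1.08, adjusted p = 5.41e-07) and H2AX (0.75, adjusted p = 8.72e-06) were on the higher side and MACROH2A1 (-0.84, adjusted p = 3.85e-06) on the lower side. The call of MACROH2A1 ended within the first date. Histone genes occur as near-identical copies and the counts hold uniquely mapped reads only, so reads of 1 copy may be missing or assigned to another. Chromosome 6, which carries the main histone cluster, held 32 upregulated DEGs, 4.41% of its 726 tested genes, against 2.37% of all tested genes. Histone DEGs named above, such as H1-4 and H2BC5, are among the 32.

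DNA replication genes were lower against control replicates 2 and 3 and split in direction against control replicate 1. All 37 listed genes were lower, 19 of them downregulated DEGs, with a median fold change of -1.581. With all 12 libraries 27 were lower. Within the first date 12 were higher and 6 lower, with a median of 0.20, and control replicate 1 lay above all AAV9-AIPL1wt libraries for 11 of the 37 genes. Within the second date 36 of the listed genes were lower. Against AAV9-GFP 37 genes were lower and against AAV9-AIPL1co 35, where 25.5% and 22.3% of all genes were lower.

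Of the helicase and its loading factors, MCM6 had 45.9, 34.97 and 75.5 normalized counts with AAV9-AIPL1wt, 422 and 527 in control replicates 2 and 3 and 99.9 in control replicate 1, and its fold change was -3.20 (SE 0.22, adjusted p = 7.2e-09). CDC45 had 6.56, 10.8 and 11.9 against 119.6 and 164 and 27.8 in control replicate 1 (-3.82, adjusted p = 1.78e-08). For MCM6 and CDC45 every control lay above every AAV9-AIPL1wt library. MCM2, another subunit of the helicase, had 261, 158 and 283 against 437 and 459.7 (-0.95, adjusted p = 0.000249), but control replicate 1, at 113, was the lowest of all 6 libraries and the call ended with all 12 libraries. The polymerase clamp PCNA showed the same order, with 503, 510.2 and 587 against 1401 and 1575 (-1.48, adjusted p = 1.78e-08) and 350.4 in control replicate 1. POLE2, a subunit of the leading strand polymerase, had 6.56, 5.38 and 11.9 against 52.7 and 66.03 and 13.1 (-2.90, adjusted p = 2.8e-07), and its call ended within the first date, as did that of DUT, which clears uracil nucleotides (82.7, 61.9 and 93.9 against 137 and 165 and 92.5).

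The enzymes that supply deoxynucleotides were lower in 10 of 16 genes and higher in 3. RRM2, the regulated subunit of ribonucleotide reductase, had 15.7, 10.8 and 30.2 normalized counts with AAV9-AIPL1wt and 462 and 628 in the controls, a fold change of -4.86 (SE 0.29, adjusted p = 1.63e-09). Control replicate 1 had 75.3, below the other controls and above every AAV9-AIPL1wt library. The same order held for TK1, which phosphorylates thymidine (17.1, 35.9 and 28.05 against 233 and 272, with 52.4 in control replicate 1). Its fold change was -3.17 (adjusted p = 1.07e-08), and that of TYMS, thymidylate synthase, was -2.55 (adjusted p = 1.07e-08), a call that ended within the first date. SAMHD1, which breaks deoxynucleotides down, is on this list too and was its largest higher member.

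Genes of mitosis and of recombination were lower as well against control replicates 2 and 3. Of 42 mitosis genes 36 were lower (median fold change -1.57), and of 25 genes of recombination and checkpoints 24 (median -1.66). In these 2 lists and in DNA replication 0 genes were higher, and the count was also 0 at an unadjusted p under 0.05, with DESeq2 and with limma-voom. Within the first date the median fold change was -0.81 for mitosis and -0.30 for recombination, with members in both directions. Control replicate 1 lay above all AAV9-AIPL1wt libraries for 27 of the 36 lower mitosis genes and 13 of the 24 lower recombination genes. It did so for 75.4% of all genes called lower and for 40.2% of all tested genes. HMMR, a protein of the spindle, had 19.7, 15.2 and 20.5 normalized counts against 106 and 123, with 93.3 in control replicate 1 near the other controls (-2.65, adjusted p = 1.52e-07). SPC25, a kinetochore protein, had 0, 1.79 and 3.24 against 25.4 and 34.7 (-3.99, adjusted p = 2.02e-06), and the kinase CDK1 fell by 1.94 (adjusted p = 2.53e-05). BRCA1 had 17.1, 12.6 and 17.3 against 170.5 and 212 (-3.63, adjusted p = 1.11e-08) and 29.5 in control replicate 1, and its call ended within the first date. ESCO2, which acetylates cohesin during replication, and BRIP1, a helicase of cross-link repair, fell, with fold changes of -4.20 (adjusted p = 1.04e-07) and -3.72 (adjusted p = 4.12e-07), with 22.9 and 22.9 normalized counts in control replicate 1 between the groups.

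Of the regulators above these genes, E2F2 had 2.62, 0.897 and 7.55 normalized counts against 42.4 and 61.9 (-3.83, adjusted p = 9.38e-07) and 5.73 in control replicate 1, within the AAV9-AIPL1wt range, and its call ended within the first date. The retinoblastoma gene RB1, which restrains E2F, had 214, 316 and 309 against 553 and 566 and 541, a fold change of -0.99 (adjusted p = 1.9e-05). Of 14 tested E2F and RB regulators 2 were higher and 7 lower. In these bulk libraries fewer cells in cycle and less RNA per cell cannot be told apart.

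**Figure D2:**
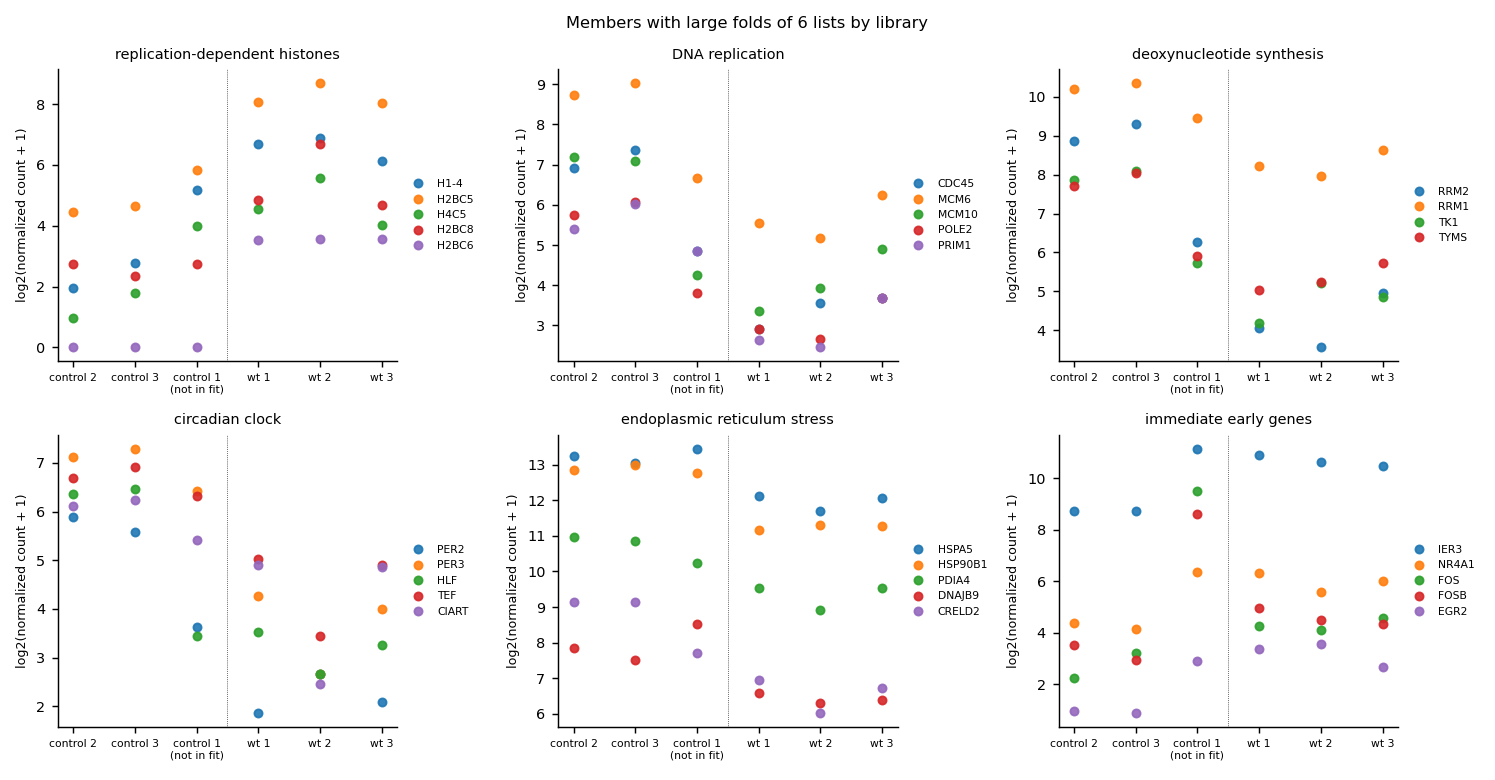
Log2(normalized count + 1) of members of 6 gene groups (vertical axis) in the AAV9-AIPL1wt and control libraries (horizontal axis), 1 point per gene and library. Control replicate 1 stands with the AAV9-AIPL1wt libraries for many DNA replication genes and above all other libraries for the immediate early gene FOS, with 716 normalized counts.

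Of 24 genes that cells induce after DNA damage 12 were lower and 4 higher (median log2 fold change -0.41), and for all 12 lower genes control replicate 1 lay above every AAV9-AIPL1wt library. MDM2, a ubiquitin ligase, had 369, 475 and 478 normalized counts against 1698 and 1666, with 922 in control replicate 1 (-1.93, SE 0.12, adjusted p = 1.88e-09). FDXR, an enzyme of mitochondrial electron transfer, had -1.81 (adjusted p = 3.22e-08), the death receptor FAS -1.20 (adjusted p = 1.01e-06) and the cell cycle inhibitor CDKN1A -0.49 (adjusted p = 0.00509). Within the first date 13 of these genes were lower and 5 higher, and the call of CDKN1A ended.

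In the circadian clock BMAL1, NPAS2 and CLOCK activate the genes of their own repressors. Of 17 tested clock genes 11 were lower and 3 higher (median -0.998), and 9 of the 13 repressors and output factors were lower, 5 of them downregulated DEGs. PER3 had 18.4, 5.38 and 15.1 normalized counts with AAV9-AIPL1wt and 138 and 156 in the controls, with 85.1 in control replicate 1 (-3.58, SE 0.27, adjusted p = 1.7e-08). PER2 had 2.62, 5.38 and 3.24 against 58.4 and 47.04 (-3.71, adjusted p = 2.84e-07), and the output factors TEF and HLF fell, with fold changes of -2.30 (adjusted p = 1.41e-06) and -3.39 (adjusted p = 2.98e-08). BMAL1 rose from 109 and 101 to 190.3, 302 and 211 (1.17, adjusted p = 0.000193) and NPAS2 by 1.25 (adjusted p = 1.65e-05). Control replicate 1 lay above all AAV9-AIPL1wt libraries for 9 of the 11 lower genes, and within the first date 10 were lower and 2 higher. The calls of HLF and NPAS2 ended there, HLF having 9.82 normalized counts in control replicate 1. Replicate 2 of AAV9-AIPL1wt, which was run on another date, was the lowest for PER3, TEF and HLF. The time of day of harvest is not given in the sources used here.

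Chaperones of the endoplasmic reticulum, which fold secreted proteins, were lower against each control. Of 22 genes of the unfolded protein response 20 were lower and 1 higher (median -0.79), and control replicate 1 lay above all AAV9-AIPL1wt libraries for 18 of the 20. HSPA5, the master chaperone BiP, had 4468, 3333 and 4306 normalized counts against 9647 and 8403, with 11202 in control replicate 1 (-1.16, SE 0.11, adjusted p = 2.13e-07). HSP90B1 had 2315, 2516 and 2467 against 7316 and 8061 and 6993 (-1.66, adjusted p = 1.63e-09). For both genes all 3 controls stood above every AAV9-AIPL1wt library. CRELD2, which this stress induces, and the disulfide isomerase PDIA4 fell, with fold changes of -2.55 (adjusted p = 9.62e-09) and -1.57 (adjusted p = 7.65e-08). Counts were 19 lower and 1 higher with all 12 libraries and 15 lower and 1 higher within the first date.

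Of 33 genes of the ATF4 response, which supplies amino acids under stress, 14 were lower and 6 higher, and 6 of 10 aminoacyl-tRNA synthetases were lower. EPRS1 had 352, 276 and 367 normalized counts against 1373 and 1501 and 1332 (-2.12, adjusted p = 1.9e-09), and IARS1 1106, 1022 and 1225 against 3274 and 3289 and 3573 (-1.55, adjusted p = 1.63e-09). ATF4 itself had 0.22 (adjusted p = 0.316) and DDIT3, the death-linked factor CHOP, -0.09 (adjusted p = 0.754), neither past the test. The first date alone gave 24 lower and 5 higher. Among cytosolic and mitochondrial heat shock proteins 6 of 13 were lower and 1 higher, with HSP90AA1 at -0.67 (adjusted p = 3.87e-06) and HSPD1 at -0.89 (adjusted p = 3.03e-07). Of 11 tested AIPL1 partners and HSP90 co-chaperones 5 were higher and 1 lower. FKBP4, a co-chaperone with the domain layout of AIPL1, rose by 0.68 (adjusted p = 4.16e-05).

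Hypoxia and glycolysis genes were lower against control replicates 2 and 3 in 20 of 34 cases and higher in 4 (median -0.49). Within the first date 13 were higher and 8 lower. PDK1, a kinase that keeps pyruvate out of the mitochondria, had 34.1, 54.7 and 57.2 normalized counts against 455 and 438 and 205 in control replicate 1 (-3.17, SE 0.22, adjusted p = 6.59e-09). P4HA1, a collagen prolyl hydroxylase, had 152, 229 and 232 against 833 and 907 and 425 (-2.08, adjusted p = 8.56e-09). The controls lay above every AAV9-AIPL1wt library for PDK1 and P4HA1. CA9, a carbonic anhydrase that marks hypoxia, had 6.56, 8.97 and 12.9 against 70.6 and 118 but 15.6 in control replicate 1 (-3.29, adjusted p = 3.23e-06), and its call ended within the first date. HIF1A fell by 0.89 (adjusted p = 1.92e-05) and VEGFA had 0.08 (adjusted p = 0.676). GAPDH, among the genes with the largest loss in counts, had 25976, 22609 and 23862 against 32629.8 and 34396 (-0.47, adjusted p = 0.000125), but control replicate 1, at 14811, lay below all AAV9-AIPL1wt libraries and turned the direction within the first date.

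Of 32 nuclear-encoded subunits of the respiratory chain 10 (31.2%) were lower, a share near the 30.0% of all tested genes, and 4 were higher, a count that ran from 1 to 8 over the alternatives other than the fits within a date. The lower ones included UQCRC2 of complex III with 405, 398 and 449.8 normalized counts against 1213 and 1236 and 1259 (-1.55, adjusted p = 1.88e-09) and NDUFB5 of complex I (-1.49, adjusted p = 5.37e-07). Of 13 mitochondrially encoded subunits 4 (30.8%) were higher, a share near the 26.4% of all tested genes, and 1 (7.69%) was lower. Among the higher ones MT-ND2 had 0.69 (adjusted p = 4.94e-06). Against control replicate 1, within the first date, 16 nuclear-encoded subunits were higher and 5 lower. Of 12 complement genes 4 (33.3%) were higher and 3 (25%) lower, shares near the 26.4% and 30.0% of all tested genes, and the 4 became 2 without AAV9-AIPL1wt replicate 1 and 1 with all 12 libraries. Of 9 interleukin-1 genes 3 were higher and 4 lower, and the 4 became 2 without AAV9-AIPL1wt replicate 3 or either control replicate. IL1RN, the interleukin-1 receptor antagonist, had 77.4, 72.6 and 48.5 against 18.8 and 17.3, a fold change of 1.86 (adjusted p = 7.34e-05), and its call ended within the first date. IL33, an alarmin of epithelia, had 23.6, 17.04 and 18.3 against 105 and 93.3 and 358 (-2.35, adjusted p = 5.75e-07).

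Lysosome and autophagy genes were higher in 18 of 26 cases and lower in 2 (median 0.63), and 13 of the 16 lysosomal genes were higher. NEU1, the lysosomal sialidase, had 1651, 1231 and 1119 normalized counts against 413 and 359.8 and 616 (1.78, SE 0.16, adjusted p = 1.06e-07). MCOLN1, the calcium channel of the lysosome, had 379, 313 and 248 against 94.2 and 89.1 and 169 (1.77, adjusted p = 1.16e-06). In both genes the controls lay below every AAV9-AIPL1wt library. SQSTM1, the autophagy receptor p62, and PSAP, the precursor of saposins, showed the largest gains in counts of all protein-coding genes together with FTH1, the ferritin heavy chain. SQSTM1 had 70845, 49203 and 54882 against 30641 and 26824 (1.02, adjusted p = 5.76e-06), and PSAP and FTH1 rose by 0.71 (adjusted p = 1.07e-05) and 0.64 (adjusted p = 0.000126). Within the first date 12 lysosome and autophagy genes were higher and 4 lower, and against AAV9-AIPL1co 4 were higher and 9 lower, where 19.3% of all genes were higher. TFEB, the factor that drives lysosomal genes, had 81.4, 70.8 and 109 against 112 and 116 (-0.39, adjusted p = 0.0817) and was lower in 6 of 20 alternatives.

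Targets of NRF2, the regulator of antioxidant enzymes, were higher in 9 of 15 cases and lower in 4. NQO1, a quinone reductase, had 5645, 5606 and 6034 normalized counts against 3433 and 3389.6 and 1437 (0.76, adjusted p = 7.23e-07), and SRXN1, sulfiredoxin, rose by 1.24 (adjusted p = 3.91e-05). Of 38 ribosomal protein genes 14 were higher, with a median of 0.22. Their count of lower genes was 0, also at an unadjusted p under 0.05, with DESeq2 and with limma-voom. RPS19 had the largest change, with 11916, 9746 and 9134 against 6338 and 6977 (0.62, adjusted p = 7.8e-05). The number of higher ribosomal protein genes ranged from 8 without control replicate 2 to 26 without AAV9-AIPL1wt replicate 3.

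As for DNA replication, hypoxia and glycolysis, and the respiratory chain above, the balance of higher and lower genes depended on which control was used in immediate early genes, NF-kB targets, sterol synthesis and ribosome biogenesis. Immediate early genes, which answer to serum and stress within minutes, were higher in 12 of 15 cases against control replicates 2 and 3, but 5 were higher and 2 lower with all 12 libraries, and 4 higher and 7 lower within the first date. FOS had 18.4, 16.1 and 22.7 normalized counts with AAV9-AIPL1wt, 3.77 and 8.25 in control replicates 2 and 3 and 716 in control replicate 1, and its log2 fold change turned from 1.61 (adjusted p = 0.0214) to -3.66 (adjusted p = 0.0294) with all 12 libraries. IER3, a survival factor of this group, had 1891, 1570.2 and 1421 against 422 and 425 and 2269 (1.94, adjusted p = 7.81e-09). Control replicate 1 was the highest of the 6 libraries for FOS and IER3. The call of FOS also ended without AAV9-AIPL1wt replicate 3 or control replicate 2, and that of IER3 with all 12 libraries. EGR1 had 14.4, 8.07 and 5.39 against 11.3 and 4.13 and 1161 (0.25, adjusted p = 0.759).

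NF-kB targets were higher in 8 of 19 cases and lower in 2, against 4 and 5 with all 12 libraries and 4 and 18 of the 22 that could be tested within the first date. The chemokine CXCL8 had 1294, 742 and 939.6 normalized counts against 1999.5 and 1362 and 20632 in control replicate 1 (-0.77, adjusted p = 0.00483), and its call ended with the GC correction or without control replicate 2. RELA, the subunit of the factor itself, had 2665, 2845 and 2226 against 1525 and 1430.3 and 1839 (0.80, adjusted p = 3.72e-06) and kept its direction and call in all 20 alternatives. Sterol synthesis genes were higher in 9 of 24 cases and lower in 4, against 1 and 8 with all 12 libraries and 1 and 19 within the first date. Ribosome biogenesis genes were lower in 8 of 16 cases and higher in 2, against 2 and 4 with all 12 libraries and 0 and 12 within the first date, with NCL, nucleolin, at 3579.6, 4330.3 and 4503 against 6625 and 6709.9 and 2942. The direction of NCL turned within the first date.

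ABCA1, which exports cholesterol and is a target of the LXR receptors, was lower. It had 134, 128 and 174 normalized counts with AAV9-AIPL1wt and 805 and 684 in the controls, with 513 in control replicate 1, and a fold change of -2.36 (SE 0.14, adjusted p = 1.63e-09). The TGF-beta and BMP targets were lower in 8 of 15 cases and higher in 3. The lower ones included the ID genes, inhibitors of differentiation that BMP induces. ID1 had 252, 138 and 304 against 929 and 1003 and 891 (-2.08, adjusted p = 1.38e-07), ID4 48.6, 44.8 and 50.7 against 232 and 287 and 116 (-2.44, adjusted p = 9.79e-09), and ID3 had 164, 69.05 and 205 against 393 and 465 (adjusted p = 2.53e-05). The smooth muscle actin ACTA2 had 57.7, 29.6 and 45.3 against 237 and 243 (-2.48, adjusted p = 1.64e-08), and 6 of 13 contractile genes were lower and 3 higher, against 2 lower and 7 higher within the first date.

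Matrix and signalling genes showed no common direction. Of 17 collagen genes 7 were higher and 6 lower, with COL4A6 of the basement membrane at 3.94, 9.86 and 6.47 normalized counts against 60.3 and 43.7 (-2.85, adjusted p = 2.33e-06) and COL16A1 at 192, 115 and 169 against 64.04 and 47.9 (1.49, adjusted p = 1.67e-05). Of 20 Wnt pathway genes 5 (25%) were higher and 3 (15%) lower, no more than the 26.4% and 30.0% of all tested genes. Among them 3 ligand or receptor genes were upregulated DEGs. FZD2 had 1306, 1357 and 1125 against 328 and 357 and 386 (1.88, adjusted p = 1.07e-08), FZD8 rose by 1.72 (adjusted p = 2.61e-07), and the ligand WNT2B fell by 1.67 (adjusted p = 9.96e-08). Of 10 YAP targets 4 (40%) were higher and 3 (30%) lower. AJUBA, a scaffold of cell contacts that restrains the Hippo kinases, had 2664, 3420.1 and 2654 against 814 and 909 and 321 (1.76, adjusted p = 1.72e-08), and CCN2, a secreted matrix protein, rose by 1.13 (adjusted p = 4.83e-06). DHRS3, which reduces retinal, fell from 1858 and 1717 to 748, 461 and 770.2 (-1.44, adjusted p = 5.92e-07) in cells that had all received a retinoid. NEAT1, the scaffold RNA of paraspeckles, had 10479, 10175 and 12792 against 21979 and 24622 and 46444 (-1.06, adjusted p = 1.77e-07).

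Beyond these groups, the largest increases included genes of the IGFL cluster on chromosome 19. IGFL1P1, a pseudogene, had 235 reads in the AAV9-AIPL1wt libraries and 1 in the 2 controls, a ratio of 191 (95% exact counting interval 33.9 to 7557). IGFL2-AS1, an antisense RNA, had 205, 416 and 180.2 normalized counts against 5.65 and 8.25 (5.24, SE 0.53, adjusted p = 2.9e-07). Both were also counted in control replicate 1, with 30.3 and 113, and the log2 fold change of IGFL2-AS1 was 2.66 with all 12 libraries. The call of IGFL1P1 ended within the first date. Reads split evenly between the strands (49.9 to 50.2% forward), so reads of an antisense RNA and of its partner gene cannot be told apart.

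The neighbouring paralogs AOC2 and AOC3, copper amine oxidases on chromosome 17 (42844580 to 42850707 and 42851184 to 42858130, plus strand), rose together. AOC2 had 34.1, 33.2 and 34.5 normalized counts with AAV9-AIPL1wt, 1.88 and 1.65 in the controls and 1.64 in control replicate 1 (4.17, adjusted p = 3.62e-06). AOC3 had 94 reads against 2, a ratio of 38.1 (95% exact counting interval 10.3 to 319), and 0 in control replicate 1. Since they are similar neighbours, reads may be shared between them. IFITM10, a member of the IFITM family of membrane proteins, had 112, 122 and 108 against 5.65 and 3.30 and 7.37 (4.66, SE 0.33, adjusted p = 7.2e-09). The secreted protease inhibitor WFIKKN1 had 72 reads against 3, a ratio of 19.5 (95% exact counting interval 6.40 to 96.6). In control replicate 1 WFIKKN1 had 2.46 normalized counts, and all 4 genes lay below every AAV9-AIPL1wt library there.

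Of the largest decreases, ECM2, an extracellular matrix protein, had 1 read in the AAV9-AIPL1wt libraries and 52 in the 2 controls, a control to AAV9-AIPL1wt ratio of 64.1 (95% exact counting interval 11.02 to 2582), and 12.3 normalized counts in control replicate 1. LINC00886 had 2 reads against 52 and 22.1 normalized counts in control replicate 1. ICA1, an islet cell antigen of the secretory pathway, had 2.62, 0.897 and 4.32 normalized counts against 32.96 and 48.7 and 55.7 (-3.97, adjusted p = 1.13e-06). GDNF-AS1 had 1 read against 47, but 0 in control replicate 1. RRM2, ESCO2, SPC25, RAD51AP1 and E2F2 of the cell cycle, FERMT1, a kindlin of integrin adhesion, FBXO16 and LINC00824 completed the 12 largest. Of the 12, GDNF-AS1, FERMT1 and E2F2 lost the call within the first date.

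The difference of AAV9-AIPL1wt from the other vectors was tested in the same fit. Against AAV9-GFP, where 25.6% of all genes were higher with AAV9-AIPL1wt, 40 interferon-stimulated genes were higher and 2 lower, and against AAV9-AIPL1co 41 were higher and 1 lower. The log2 difference of IFIT1 was 5.30 (adjusted p = 2.68e-13) from AAV9-GFP and 4.65 (adjusted p = 9.1e-13) from AAV9-AIPL1co. For RRM2 the differences were -4.82 (adjusted p = 9.49e-10) and -2.33 (adjusted p = 1.99e-05), and for H1-4 2.87 (adjusted p = 2.94e-07) and 2.32 (adjusted p = 2.9e-06). NEU1 was higher than with AAV9-GFP (1.18, adjusted p = 1.9e-06) and lower than with AAV9-AIPL1co (-0.55, adjusted p = 0.00303). IGFL2-AS1 was higher than with AAV9-GFP (3.86, adjusted p = 3.74e-07), and its difference from AAV9-AIPL1co was -0.42 (adjusted p = 0.231). HSP90B1 was lower than with both, with differences of -1.13 (adjusted p = 2.45e-08) and -0.46 (adjusted p = 0.000439).

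A few structural RNAs moved with 1 library. RN7SL1, the RNA of the signal recognition particle, had 2319.9, 531 and 376 normalized counts with AAV9-AIPL1wt and 206 and 227 in the controls (2.29, adjusted p = 0.00287). RMRP, the RNA of a ribosomal RNA processing enzyme, had 867, 127 and 72.3 against 48.03 and 109.8 (2.11, adjusted p = 0.0261), and its call ended in 9 of 20 alternatives, with a fold change of 0.39 without AAV9-AIPL1wt replicate 1. The levels of RMRP overlapped between the groups. Both were highest in AAV9-AIPL1wt replicate 1, the library with 24.3% of reads at several loci. Without that replicate 35 interferon-stimulated genes were higher and 2 lower, 15 members of the histone list higher and 2 lower, and 36 DNA replication genes lower.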

How the data were processed

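RNA-seq was done on 12 libraries of ARPE-19 cells, 3 in each of 4 groups. According to the study and the submitters' processing notes, the authors aligned reads to GRCh38 with STAR 2.7.10b and deposited raw counts of uniquely mapped reads per gene from HTSeq 0.11.1. The 4 vector entries and 5 entries of unassigned reads were left out, and 0 columns belonged to other series. Positions came from Gencode 44, in which 62686 of 62757 genes were matched. Counts of 11 libraries, without non-transduced control replicate 1, were filtered (filterByExpr), normalized (TMM) and fitted by group with the edgeR 4.0.16 quasi-likelihood test in R 4.3.3. Genes past an adjusted p of 0.005 and a 3-fold change were called DEGs, and members of gene lists were called at 0.05. The SE is the fold change divided by the root of the F statistic. The procedure was tested on simulated data. Named genes were, by rule, the 12 largest DEGs in each direction with a mean of at least 20 and no overlap between groups, up to 5 members per list and those defining a role, and the 3 largest differences in counts in each direction, except some genes that are not reported here. The gene lists and members were chosen with earlier results of these data known. The methods of the study call the 3 samples of a group biological replicates. Alternatives were the use of all 12 libraries, a date term, a replicate block, GC correction, other normalizations and filters, DESeq2 1.42.0, limma-voom (limma 3.58.1), the 5 libraries alone and leaving out each library. The fits within each run date were added after seeing the data. Intervals and floors cover counting error only.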

Additional observations from a re-analysis of the deposited data

Results flagged for a closer look

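The share of reads aligned to several places lies outside the counted reads. It was 24.3%, 15.1% and 13.8% in AAV9-AIPL1wt replicates 1, 2 and 3, above the 13.2 to 13.6% of the 3 non-transduced controls. The values are given as measured, and their part in the changes of single genes was not tested beyond leaving out each library.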

How the results depend on the processing

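The numbers of upregulated and downregulated DEGs and of genes higher and lower stayed within 1.5 times of the counts given here under all 20 alternatives. The smaller DEG counts of the study itself are not among these alternatives. Upregulated DEGs ranged from 234 with all 12 libraries to 462 within the second date, and downregulated DEGs from 494 without control replicate 3 to 943 within the second date. Leaving out single libraries gave 257 to 385 upregulated and 494 to 720 downregulated DEGs. With a replicate block the counts were 325 and 696, and with the replicate block and GC correction together 304 and 610. The replicate numbers were shared labels only, since the deviations of same-numbered AAV9-AIPL1wt and control libraries correlated at -0.034 and 0.023. Scaling by library size alone gave 275 and 777. Fold changes turned direction mainly within the first date, where control replicate 1 is the only control and is assumed to vary like the other groups. There the log2 fold changes were 0 for GDNF-AS1, 0.76 for GAPDH, -0.62 for IFNLR1, -0.45 for IER3, -5.09 for FOS, 0.47 for NCL, 0.75 for KRT8, 0.44 for KRT18, 0.17 for TUBB3, 0.62 for PPIA, -0.55 for ATF4, -6.91 for EGR1, 0.36 for SLBP, 1.28 for MCM2, 0.65 for PCNA and -1.04 for RIGI. With all 12 libraries FOS had -3.66 and EGR1 -5.42, and with a date term in addition -3.28 and -5.05. The cause was not tested. Depth limited what could be measured for genes with 1 to 3 reads in a group.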

Other observations

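Gene lists not described above held further changes against control replicates 2 and 3, in a background of 26.4% of tested genes higher and 30.0% lower. Of 9 fatty acid synthesis genes 4 were lower and 2 higher, and ACACA, which makes the malonyl-CoA used for chain growth, had 346, 354 and 503 normalized counts with AAV9-AIPL1wt, 865 and 847 in the controls and 865 in control replicate 1 (log2 fold change -1.09, adjusted p = 2.98e-06). Complement C5, the source of the C5a anaphylatoxin, fell from 37.7 and 43.7 to 5.25, 8.07 and 5.39 (-2.65, adjusted p = 6.6e-06), with 15.6 in control replicate 1. In matrix remodelling 8 of 20 genes were higher and 6 lower, among them the protease ADAMTS1, which rose from 773 and 605 to 1716, 1653 and 1616 (1.27, adjusted p = 9.93e-08), and the plasminogen activator PLAT, which fell by 1.08 (adjusted p = 0.000151). The calcium-binding protein S100A4 had 38.1, 46.6 and 28.05 against 5.65 and 3.30 and 16.4 (3.07, adjusted p = 2.92e-05), whereas ZEB1, a repressor of epithelial genes, fell by 1.06 (adjusted p = 5.59e-05), and of 8 fibroblast and mesenchymal markers 2 were higher and 3 lower. Control replicate 1 lay on the control side of every AAV9-AIPL1wt library for all 6 of these genes.

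Of 12 retinoid targets and receptors 3 were higher and 2 lower, and the receptor RARA had 509, 679 and 511 against 359 and 361 and 242 (0.66, adjusted p = 0.000321). Of 13 ERK feedback genes 5 were higher and 2 lower, with the phosphatase DUSP5 at 1439, 1307 and 1189.9 against 554 and 469.6 (1.36, adjusted p = 3.71e-08). Among 7 tested Hedgehog genes 2 were higher and 1 lower, and the signal transducer SMO had 144, 76.2 and 119 against 246 and 209 and 255 (-1.03, adjusted p = 0.000512). The G1 inhibitor CDKN2A, which is commonly used as a mark of senescence, fell from 29.2 and 40.4 to 10.497, 13.5 and 9.71, with 45.03 in control replicate 1 (-1.61, adjusted p = 0.000193), and 5 of 14 tested G1 regulators were lower and 1 higher. MT2A, a metal-binding metallothionein, fell by 0.97 (adjusted p = 0.000110). The neuronal tubulin TUBB3 had 20.99, 20.6 and 31.3 against 72.5 and 61.1, but 23.7 in control replicate 1 lay within the AAV9-AIPL1wt range, and its direction turned within the first date. The counts were 3 higher and 1 lower of 9 Notch genes, 1 higher and 2 lower of 6 metallothionein genes, and 3 higher and 4 lower of 11 nuclear and structural RNAs. Of 13 cohesin genes 1 was higher and 4 were lower, but the balance was not stable, with 7 higher and 4 lower within the second date, 6 and 3 with the GC correction, and 8 lower without AAV9-AIPL1wt replicate 2.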
